A study of Homo sapiens with 9 samples.

Results

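ATP-binding cassette (ABC) transporters were followed in human naive pluripotent stem cells treated with an inhibitor or a degrader of the repressive chromatin complex PRC2 during the exit from the naive state. The family was taken as every entry of the gene count table whose symbol runs ABC, a subfamily letter from A to G and a number. This rule gave 46 of the 56307 genes: 12 of subfamily ABCA, 9 of ABCB, 12 of ABCC, 4 of ABCD, 1 of ABCE, 3 of ABCF and 5 of ABCG. The drug efflux pumps ABCG2, ABCC2 and ABCB1 are also described apart.

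Functional ABC proteins have a pair of nucleotide-binding domains that hydrolyse ATP. In subfamilies A to D and G this drives lipids, sterols, peptides, metals, conjugates or drugs across membranes, while the E and F proteins have no membrane-spanning part and act on ribosomes and translation. In pluripotent stem cells the family is best known for ABCG2, the breast cancer resistance protein, whose efflux of a DNA dye has been used to sort stem-like cells. PRC2 places trimethylation on lysine 27 of histone H3, a repressive mark that collects at CpG-rich promoters.

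All 9 libraries came from HNES1, a single embryo-derived human naive line with no stated genetic change, collected at day 5 of the passage from naive towards primed pluripotency. The UNC group received 1 µM UNC1999, an inhibitor of the catalytic subunits EZH2 and EZH1. The PROTAC group received 2.5 µM UNC6852, a bivalent molecule that brings the subunit EED to a ubiquitin ligase for degradation. The DMSO group received the vehicle. Each group had 3 libraries, and every group was given its compound before the naive medium was withdrawn, with daily renewal, and then the same basal medium with the tankyrase inhibitor XAV939. Before that the line had been kept on mouse feeder cells.

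Libraries held 40880924 to 101081643 counts in the UNC group, 31651742 to 93642763 in the PROTAC group and 42043602 to 84716561 in the DMSO group, of which the ABC transporters took 0.133% to 0.141%. Levels below are CPM, counts scaled to library size and composition. Transcripts of the targeted subunits averaged 12.1, 12.4 and 11.7 CPM for EED, 53.2, 49.1 and 44.7 CPM for EZH2 and 63.7, 62.3 and 65.0 CPM for EZH1 in the UNC, PROTAC and DMSO groups, values that do not measure protein loss. POU5F1, which marks pluripotent cells, averaged 714 CPM in UNC cells, 747 CPM in PROTAC cells and 727 CPM in DMSO cells. ALB, which marks liver cells, was at 0 in the DMSO libraries and at most 0.0317 CPM elsewhere. The libraries with replicate number 1 lay apart from the rest on the first principal component of all genes, at -41.2 to -30.2, whatever their group.

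The DNA before the starts of the ABC genes on which the results turn is shown because these genes differ in CpG content. RefSeq (GRCh38.p14) gave promoters for 35 of the 46 genes, and the 250 bases before each start were searched for CpG dinucleotides. The stretches below run 5' to 3' on the gene's own strand up to the first base of the start or of an annotated exon, with CpG dinucleotides in capitals. ABCA1, a cholesterol exporter, has its stretch at chr9:104928238-104928405 on the minus strand. ABCG2 has an outer start with a stretch at chr4:88231627-88231876 and an inner start with a stretch at chr4:88159025-88159159, both on the minus strand. ABCC2, a pump for conjugated compounds, has its stretch at chr10:99782390-99782639 on the plus strand.
ABCA1 upstream: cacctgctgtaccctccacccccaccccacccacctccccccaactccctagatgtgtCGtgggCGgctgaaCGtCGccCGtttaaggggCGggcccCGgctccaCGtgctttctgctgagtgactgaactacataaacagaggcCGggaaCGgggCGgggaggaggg
ABCG2 outer start: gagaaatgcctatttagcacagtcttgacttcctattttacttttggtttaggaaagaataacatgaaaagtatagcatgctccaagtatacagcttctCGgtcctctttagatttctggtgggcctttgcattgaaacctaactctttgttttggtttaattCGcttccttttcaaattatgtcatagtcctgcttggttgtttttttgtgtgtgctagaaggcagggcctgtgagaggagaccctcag
ABCG2 inner start: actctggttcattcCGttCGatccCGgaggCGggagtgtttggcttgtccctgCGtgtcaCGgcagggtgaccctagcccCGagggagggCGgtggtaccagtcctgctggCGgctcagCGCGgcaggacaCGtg
ABCC2 upstream: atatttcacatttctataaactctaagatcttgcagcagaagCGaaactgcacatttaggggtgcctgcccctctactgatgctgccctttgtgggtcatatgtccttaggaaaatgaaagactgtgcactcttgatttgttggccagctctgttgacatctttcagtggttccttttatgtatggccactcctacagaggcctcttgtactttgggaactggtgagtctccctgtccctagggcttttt

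The ABCA1 stretch of 168 bases held 11 CpG dinucleotides, and the inner ABCG2 stretch of 135 bases held 12. The outer ABCG2 stretch and the ABCC2 stretch, both of 250 bases, held 2 and 1. ABCG2 is listed with 5 starts, some CpG-poor and some CpG-rich, and its count would take in transcripts from any of them. The counts do not say which starts were used.

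CpG content and transcript level were set side by side over the family as a description, with no test. Of the 18 matched genes that averaged at least 10 CPM over the 9 libraries, 17 had a start whose ratio of observed to expected CpG was 0.6 or more. Of the 10 matched genes that were tested but averaged less, 5 had such a start, and of the 7 matched genes too low to test, 1 did. Counted in the same way, by gene with any such start, the share among all 27305 genes with a promoter was 50.6%. That share covers genes at any level, so it is not a like comparison for the members of at least 10 CPM. The share among all genes of that level was not counted.

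ABCA1 is a textbook target of the liver X receptors, which bind a direct repeat with 4 bases between its arms. The strict repeat, AGGTCA, any 4 bases and AGGTCA on either strand, was in none of the windows of the 35 genes and in 0.0142% of all promoters. The motif CACGTG, known as an E-box, was searched as well. It was in 9 of the family's 53 windows, those of 8 genes with ABCA1 and ABCG2 among them, beside 6.34% of all promoters. The ABCG2 windows with a match, chr4:88158860-88159109 and chr4:88158910-88159159, overlap and hold the same site. The share of all genes with this motif was not counted, and its part in any change of level was not tested. A relaxed form of the repeat, AGGTNA, any 4 bases and NGGTCA, was in 0.0797% of all promoters and matched in ABCA1 alone among the 35 genes. This form was chosen with the ABCA1 promoter in view, so its match there was built in. The match, with both arms of the repeat in capitals, lies before the RefSeq start and within an untranslated first exon that GENCODE 29 gives to ABCA1, on the plus strand at chr9:104928209-104928224.
ABCA1 repeat: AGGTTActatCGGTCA

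Of the 46 genes, 37 had enough counts to be tested. ABCA6, ABCA8, ABCA9 and ABCA10, 4 genes clustered on chromosome 17, had 0 counts in all 9 libraries, which allows up to 3 counts a library, or 0.0289 to 0.0947 CPM. ABCA5, which overlaps ABCA10 at the end of that cluster, was at 2.06, 2.08 and 1.87 CPM on average in UNC, PROTAC and DMSO cells. The other genes too low to test were ABCB11, the bile salt pump, with 37 counts summed over the libraries, the sterol half-transporter ABCG5 with 36, ABCB5 with 16, the peroxisomal ABCD2 with 2 and ABCC9, a potassium channel subunit, with 1.

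Transcript levels per kilobase of exon spanned more than 3 orders of magnitude among the tested genes. Over all 9 libraries the mean was highest for ABCF1, a translation factor, at 22.9 CPM per kb, followed by ABCE1, which splits ribosomes after termination, at 21.2, ABCG2 at 20.5 and ABCC1, an exporter of glutathione conjugates, at 17.3. The order of these genes depended on the group. ABCG2 stood at 16.7 ± 1.59 CPM per kb in UNC cells, at 20.5 ± 0.371 in PROTAC cells and at 24.4 ± 2.42 in DMSO cells (SD, n = 3 each). ABCF1 stood at 23.1 ± 1.79, 22.6 ± 0.442 and 23.2 ± 2.18 in the same groups. Thus ABCG2 had the highest mean of the family in DMSO cells, where it lay within the spread of ABCF1, and only the fourth highest in UNC cells, below ABCF1, ABCE1 and ABCC1.

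**Figure D1:**
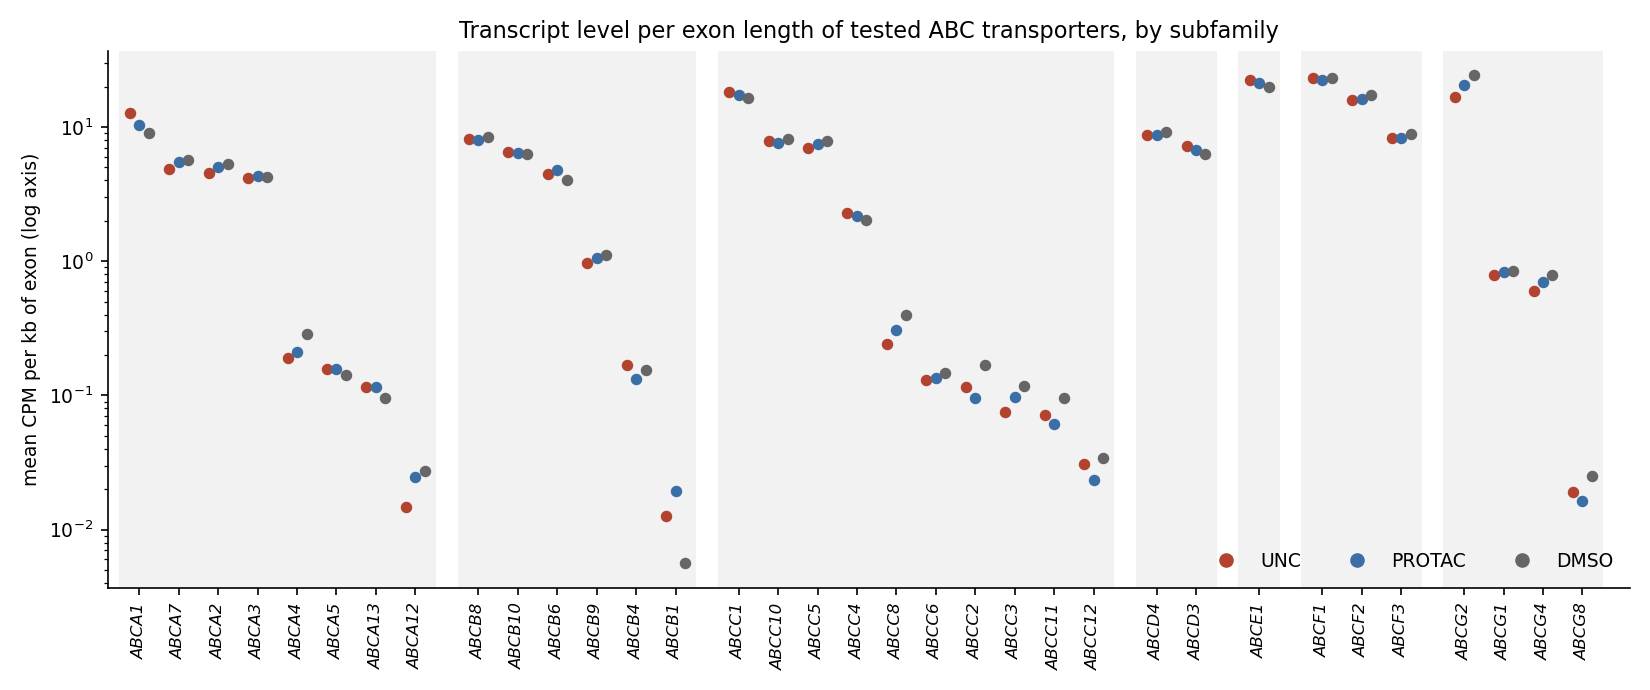
Mean level of tested ABC transporters with a known exon length, in CPM per kb of exon on a log axis, by subfamily (grey blocks); each point is the mean of 3 libraries of the UNC, PROTAC or DMSO group. ABCF1, ABCE1, ABCG2 and ABCC1 stand highest, between 17.3 and 22.9 CPM per kb over all libraries, while the pumps ABCC2 and ABCB1 lie at 0.127 and 0.0126.

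Within subfamilies a few genes held most of the transcripts. In ABCA the highest levels per kb were those of ABCA1 at 10.7 and ABCA7, a phospholipid transporter, at 5.36. In ABCB, the mitochondrial transporter ABCB8 stood at 8.19. ABCC1 at 17.3 and ABCC10 at 7.86 led ABCC, the lysosomal cobalamin transporter ABCD4 at 8.90 and the peroxisomal ABCD3 at 6.78 led ABCD, and ABCF1 at 22.9 and ABCF2 at 16.4 led ABCF. ABCF2 shares 15683 bases with another entry of the same strand, which had 29775 counts beside 41739 for ABCF2. Reads of these entries may be shared, which leaves the ABCF2 level uncertain. In ABCG, ABCG2 at 20.5 stood far above the next gene, ABCG1, a cholesterol exporter at 0.821 CPM per kb. The other efflux pumps were low: ABCC2 ranked 29 at 0.127 CPM per kb and ABCB1, P-glycoprotein, ranked 37 at 0.0126.

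Neighbouring members could differ widely or be alike in level. The 4 clustered genes at 0 counts are one case of the second kind. ABCC1 and ABCC6 lie 6307 bases apart on chromosome 16, and ABCC1 was at 18.2, 17.3 and 16.4 CPM per kb in UNC, PROTAC and DMSO cells while ABCC6 was at 0.130, 0.135 and 0.146. Reads of ABCC6 can be traded with its pseudogene copies, so that its level is uncertain.

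With UNC1999, ABCA1 transcripts were more abundant and ABCG2 transcripts less abundant than with vehicle, and these were the 2 members that passed the test whether or not libraries were paired. Over the 37 tested, 13 log2 fold changes were positive and 24 negative, and their median size without sign was 0.17, beside 0.15 over all genes tested. By group alone, 2 of the 37 genes passed an adjusted p of 0.05, beside 0.72% of all 24182 genes tested; 1 was higher, beside 0.318%, and 1 lower, beside 0.401%. Libraries with the same replicate number deviated together, and with the number as a block (the paired fit) 10 genes passed, beside 13.5% of all genes; 4 were higher, beside 7.05%, and 6 lower, beside 6.46%. Highly counted genes passed more often: among genes of at least 10 CPM, 8 of 21 ABC transporters passed the paired fit, beside 19.7% of all such genes.

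ABCA1 (ENSG00000165029, chr9:104781006-104928155, minus strand), which loads cholesterol and phospholipid onto apolipoprotein A-I, stood at 146, 147 and 140 CPM in the UNC libraries and at 99.7, 101 and 109 CPM in the DMSO libraries. Each UNC library was above every DMSO library. The log2 fold change was 0.48 (SE 0.064), or 1.40-fold, with an adjusted p of 0.00657 without the block and 1.11e-08 with it. All 3 replicate numbers showed it, by 0.55, 0.55 and 0.36 on the log2 scale.

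ABCG2 (ENSG00000118777, chr4:88090150-88231628, minus strand) went the other way, with 88.8, 89.0 and 75.0 CPM in the UNC libraries against 118, 137 and 114 CPM in the DMSO libraries. Here too the groups did not overlap, and all 3 numbers showed the difference. The log2 fold change was -0.55 (SE 0.086), 0.685 of the vehicle level, with an adjusted p of 0.0158 without the block and 1.53e-08 with it. By group alone the call was lost without UNC library 3 (adjusted p = 0.0903, log2 fold change -0.47) or without DMSO library 2 (0.0604, -0.46), and neither ABCG2 nor ABCA1 passed when all libraries of number 2 or of number 3 were left out. In the paired fit both genes passed in every one of 18 settings, these and the paired fit itself included.

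ABCG2 is also abundant in placental trophoblast, and markers of that cell type were lower in the UNC group as well. Of 15 listed trophoblast genes, 13 were tested. In the paired fit 1 was higher and 7 were lower, beside 7.05% and 6.46% of all genes. Other lists held lower genes too. Amnion markers were 1 higher and 4 lower of 8, mesoderm and endothelium 0 and 3 of 7, primed and formative 3 and 6 of 14. With UNC6852, 0 trophoblast genes were higher and 2 lower, beside 2.03% and 0.988%. The summed level of the listed trophoblast genes was 21.1 to 41.7 CPM in UNC libraries, 27.1 to 60.9 CPM in PROTAC libraries and 30.0 to 65.2 CPM in DMSO libraries. The defining markers were above 0 in every library: CGA, the alpha subunit of chorionic gonadotropin, ranged over 1.55 to 12.6, 1.67 to 24.6 and 4.23 to 22.5 CPM, and GATA3 over 0.471 to 1.02, 1.32 to 2.02 and 1.76 to 2.94 CPM in the UNC, PROTAC and DMSO libraries. The part of such cells in the ABCG2 result was not tested, and in bulk RNA fewer cells of a type and less RNA per cell cannot be told apart.

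**Figure D2:**
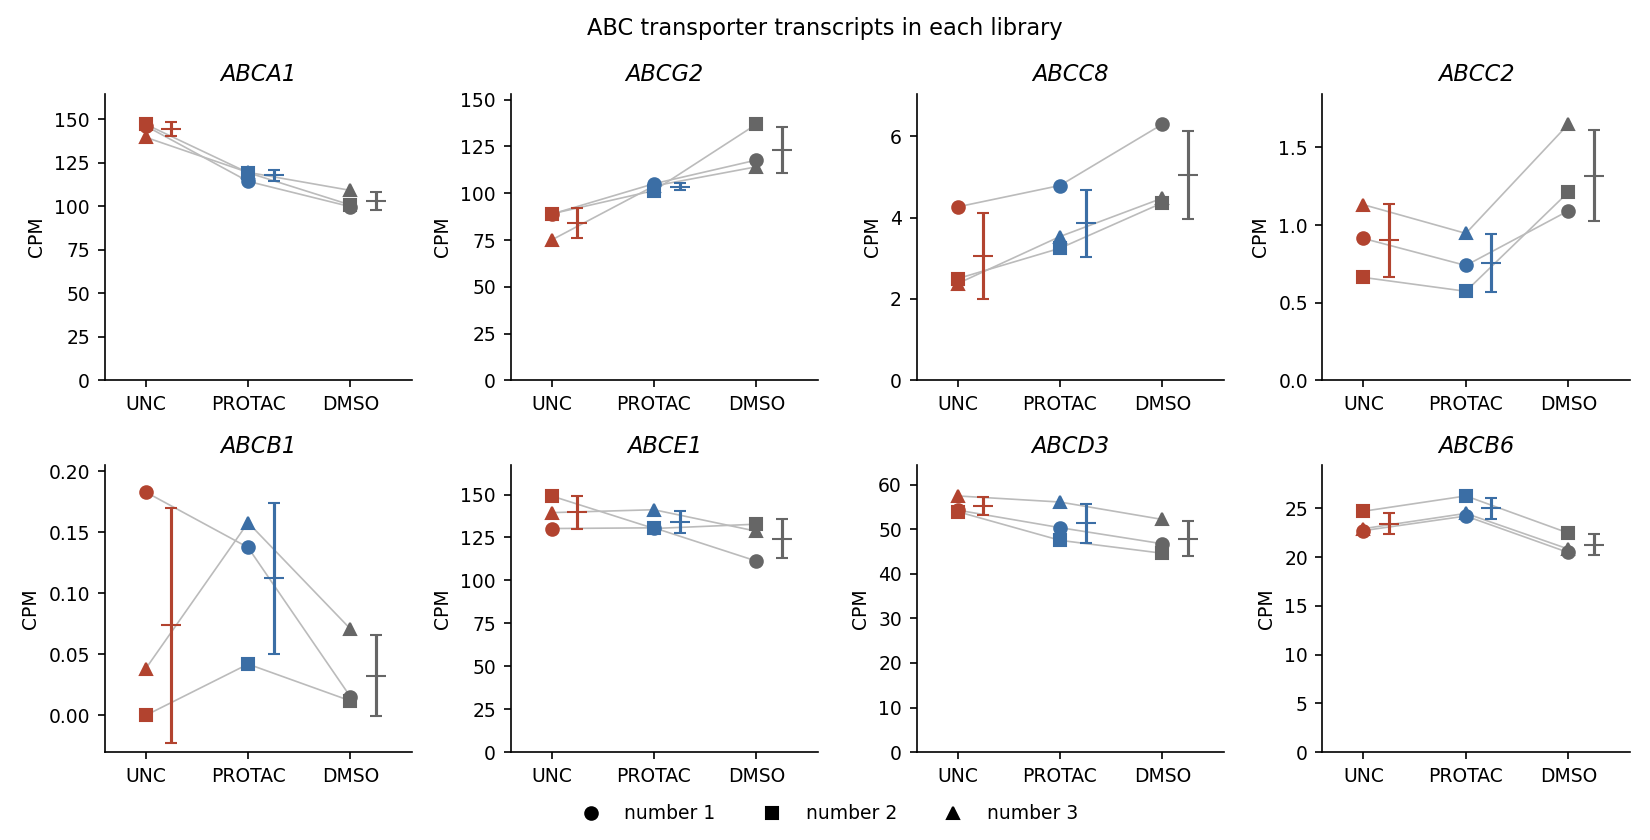
Level in CPM (linear axes) of 8 ABC transporters in each library of the UNC, PROTAC and DMSO groups; marker shape gives the replicate number, grey lines join libraries of the same number, and the bar beside the points is the mean with its SD. ABCA1 stands at 140 to 147 CPM in UNC, 114 to 119 in PROTAC and 99.7 to 109 in DMSO libraries, and ABCG2 in the opposite order at 75.0 to 89.0, 101 to 105 and 114 to 137 CPM.

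Of the 3 drug efflux pumps, ABCG2 alone passed the test with UNC1999. ABCC2, also called MRP2, had 0.914, 0.663 and 1.13 CPM in UNC libraries against 1.09, 1.21 and 1.65 CPM in DMSO libraries. The groups overlapped, although every replicate number had less in the UNC library. Its log2 fold change was -0.51 (SE 0.27) by group alone with an adjusted p of 0.491, and -0.54 in the paired fit with an adjusted p of 0.102 (95% interval -0.98 to -0.094). ABCB1 had 19, 0 and 3 counts in the UNC libraries and 1, 1 and 3 counts in the DMSO libraries, so 1 UNC library carried nearly all of its UNC reads. At that depth no difference was detectable (paired log2 fold change 1.27, 95% interval -0.70 to 3.24, adjusted p = 0.449). Together the pumps summed to 85.2 ± 7.85 CPM in UNC cells and 124 ± 12.1 CPM in DMSO cells (SD, n = 3 each), nearly all of it ABCG2.

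Among further members of ABCA and ABCG, ABCA2, ABCA7 and ABCG4 were lower in the paired fit. ABCA2, an endolysosomal sterol transporter, had 52.7, 51.3 and 53.2 CPM in UNC libraries and 67.9, 58.1 and 58.0 CPM in DMSO libraries, lower in every UNC library than in any DMSO library. It fell by 0.23 on the log2 scale with an adjusted p of 0.227 without pairing and 0.00876 with it. ABCA7 had 36.2, 45.6 and 41.1 CPM in UNC libraries and 48.0, 47.5 and 46.8 CPM in DMSO libraries. Its paired log2 fold change was -0.22 with an adjusted p of 0.0144, against 0.403 by group alone. ABCG4, a sterol exporter of the brain, had 3.79, 3.95 and 3.60 CPM in UNC libraries against 5.41, 5.18 and 4.20 CPM in DMSO libraries. Again the groups did not overlap, and the paired log2 fold change was -0.38 with an adjusted p of 0.0265, against 0.316 by group alone. Over 18 paired settings (the paired fit itself, other scalings and tools, or a library or number left out) the call held in 13 for ABCA2, 12 for ABCA7 and 11 for ABCG4. ABCG1, which hands cholesterol to high-density lipoprotein and is another liver X receptor target, had a log2 fold change of -0.11 by group alone (95% interval -0.37 to 0.16) with an adjusted p of 0.807.

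ABCC8, the sulfonylurea receptor subunit of a potassium channel, had the largest paired change among the members that passed. It stood at 4.26, 2.50 and 2.38 CPM in UNC libraries and at 6.29, 4.36 and 4.48 CPM in DMSO libraries, and the groups did not overlap. The library of number 1 was the highest in both groups. The paired log2 fold change was -0.74 (SE 0.13, adjusted p = 5.02e-05), or 0.599 of the vehicle level, while by group alone it was -0.71 (SE 0.24, adjusted p = 0.222). In the paired fit it passed in all 18 settings.

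In the rest of ABCC the members moved in both directions. ABCC1 stood at 141, 137 and 134 CPM in UNC libraries against 126, 128 and 119 CPM in DMSO libraries, without overlap. Its log2 fold change was 0.15 with a paired adjusted p of 0.0388, and 0.322 by group alone, and the paired call held in 6 of 18 settings. ABCC5, an exporter of cyclic nucleotides, stood at 90.4, 72.3 and 75.6 CPM in UNC libraries against 101, 80.3 and 88.3 CPM in DMSO libraries. These groups overlapped, yet every number had less in the UNC library, and the paired log2 fold change was -0.18 with an adjusted p of 0.0168 (0.545 by group alone), which held in 12 of 18 settings. The summed ABCC level was 310 ± 13.2 CPM in UNC cells and 310 ± 15.6 CPM in DMSO cells (SD, n = 3 each).

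ABCD3, which carries branched and long-chain fatty acids into peroxisomes, had 54.3, 54.0 and 57.5 CPM in UNC libraries and 46.7, 44.6 and 52.2 CPM in DMSO libraries, without overlap. The log2 fold change was 0.21 with a paired adjusted p of 0.00785 and 0.316 by group alone, and the paired call held in 15 of 18 settings. ABCE1 had 130, 149 and 139 CPM in UNC libraries and 111, 133 and 129 CPM in DMSO libraries. Its groups overlapped, but all 3 numbers had more in the UNC library, and the paired log2 fold change was 0.17 with an adjusted p of 0.0262 (0.426 by group alone), which held in 9 of 18 settings. The spans of ABCE1 and OTUD4, introns included, share 18687 bases on opposite strands. The strand setting of the counting is not given in the sources used here, so some of their reads may be shared.

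None of the 7 tested ABCB genes and none of the 3 ABCF genes passed either fit with UNC1999. The 3 ABCF genes had paired log2 fold changes of -0.0051 for ABCF1, -0.13 for ABCF2 and -0.087 for ABCF3. Counting members whose 3 UNC libraries did not overlap the 3 DMSO libraries gave 12 of 37, beside 17.4% of all genes tested.

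**Figure D3:**
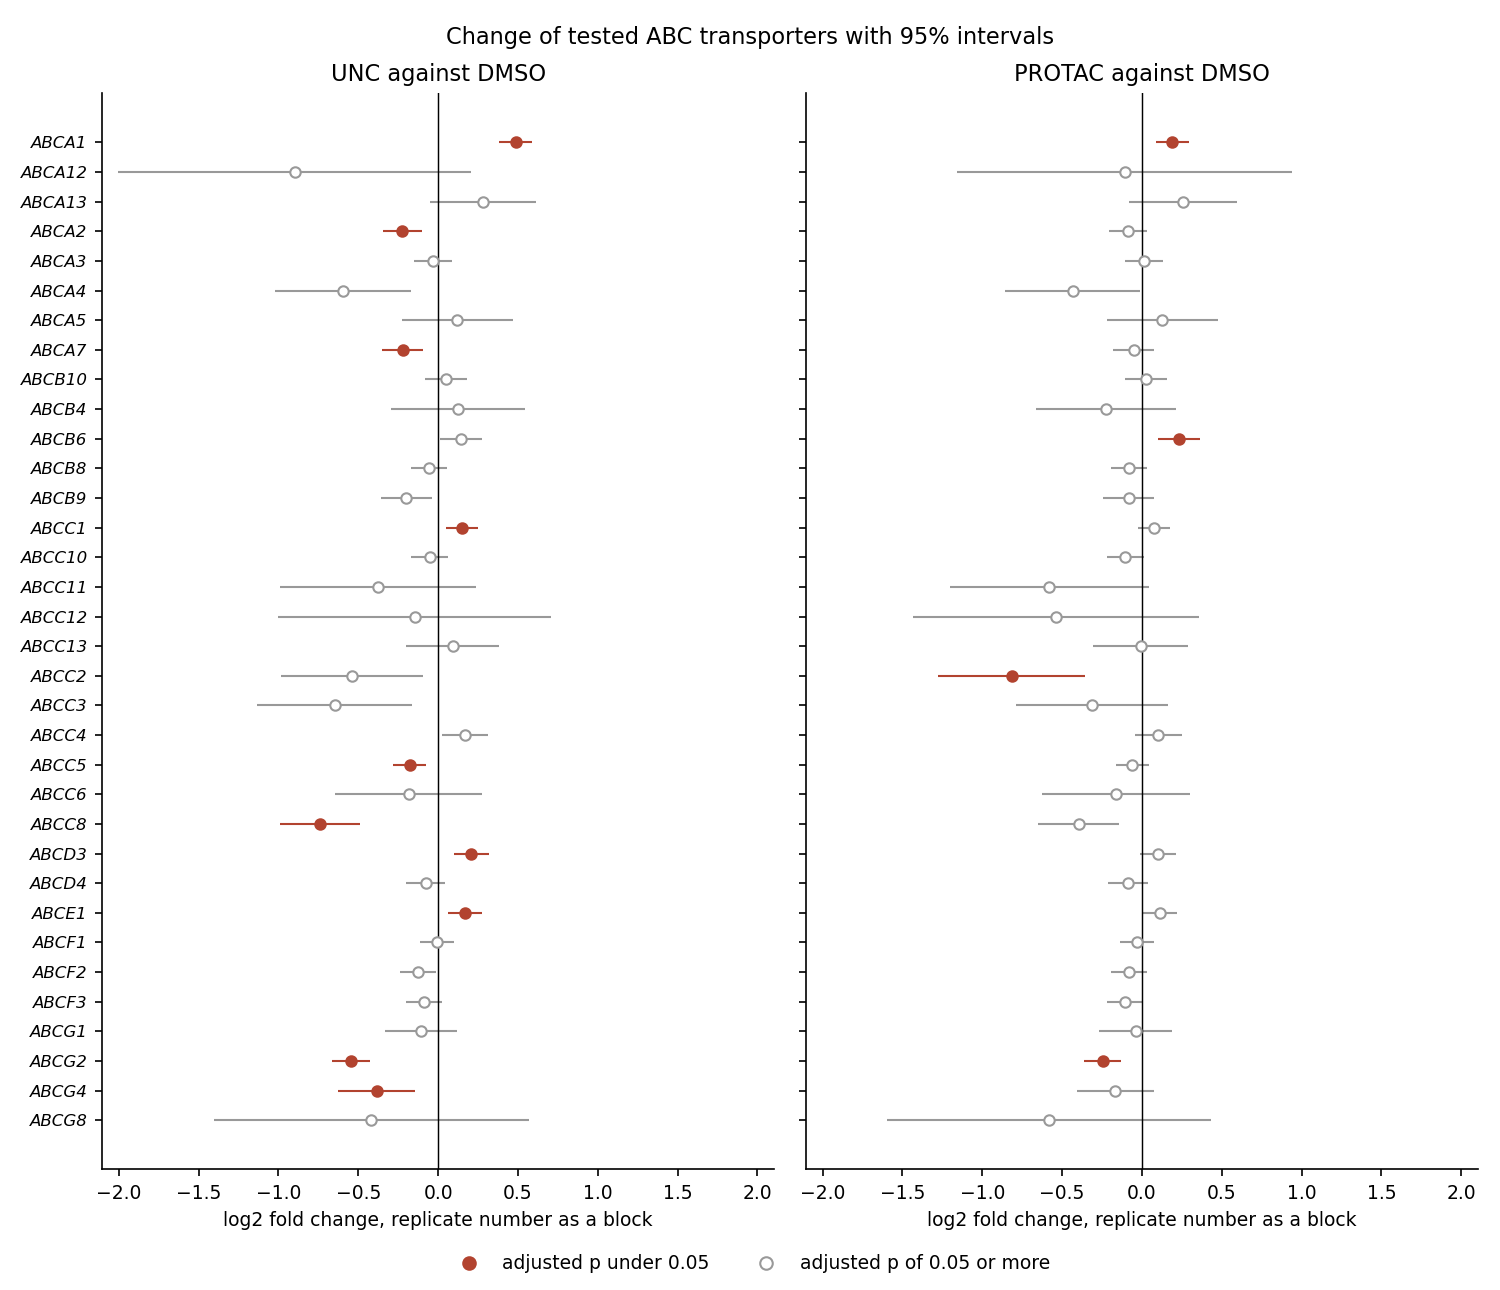
Paired log2 fold change with its 95% interval for tested ABC transporters, with UNC against DMSO on the left and PROTAC against DMSO on the right; filled red points passed an adjusted p of 0.05 over all genes tested, and ABCB1 is left out for its low counts. With UNC, 10 genes are filled, led by ABCA1 on the right and ABCC8 and ABCG2 on the left of 0; with PROTAC, 4 are filled.

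With UNC6852, ABCA1 was again higher and ABCG2 lower than with vehicle, by smaller amounts that passed the test in the paired fit only. By group alone no ABC transporter passed an adjusted p of 0.05 in edgeR's quasi-likelihood test, nor did any other gene (0% of 24182). Of the 37 members, 4 had an unadjusted p under 0.05 in that test, beside 1200 of all 24182 genes. By group alone, DESeq2 called 0 members, beside 13 genes higher and 10 lower over all genes. With limma-voom by group alone, 0 members were called, beside 0 of all genes. In the paired fit 4 passed, beside 3.02% of all genes: ABCA1 and ABCB6 were higher, beside 2.03% of genes higher, and ABCG2 and ABCC2 lower, beside 0.988% lower. Among genes of at least 10 CPM, 3 of 21 passed, beside 5.18% of all such genes. The median log2 fold change of the 37 was -0.07, beside -0.01 over all genes.

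ABCA1 stood at 114, 119 and 119 CPM in the PROTAC libraries and at 99.7, 101 and 109 CPM in the DMSO libraries. The groups did not overlap. The paired log2 fold change was 0.19 (SE 0.052), or 1.14-fold, with an adjusted p of 0.0324, against 0.938 by group alone. Leaving out 1 library or 1 replicate number at a time, the paired call held in 3 of 12 cases, without UNC library 1, UNC library 3 or PROTAC library 1, with log2 fold changes of 0.16 to 0.24 over the 12.

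ABCG2 stood at 105, 101 and 104 CPM in the PROTAC libraries and at 118, 137 and 114 CPM in the DMSO libraries, again without overlap. Its paired log2 fold change was -0.25 (SE 0.057), 0.843 of the vehicle level, with an adjusted p of 0.0108 against 0.938 by group alone. The paired call held in 8 of the 12 cases and was lost without PROTAC library 2, DMSO library 2, DMSO library 3 or all libraries of number 2, with log2 fold changes of -0.31 to -0.15 over the 12.

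ABCC2 was lower in the PROTAC group, with 0.740, 0.574 and 0.947 CPM against 1.09, 1.21 and 1.65 CPM in the DMSO group, without overlap. The paired log2 fold change was -0.82 (SE 0.23), 0.568 of the vehicle level, with an adjusted p of 0.0387, against 0.938 by group alone. The call held in 1 of the 12 cases, without DMSO library 1, with log2 fold changes of -0.96 to -0.66 over the 12, and the paired fit of DESeq2 gave it no adjusted p. An uncharacterised entry on the opposite strand shares 10834 bases with ABCC2 and had 406 counts over all libraries beside 595 for ABCC2. ABCB1 had 13, 3 and 5 counts in the PROTAC libraries against 1, 1 and 3 in the DMSO libraries, with a paired adjusted p of 0.365.

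ABCB6, a porphyrin transporter, had 24.2, 26.3 and 24.5 CPM in the PROTAC libraries and 20.5, 22.5 and 20.8 CPM in the DMSO libraries. The groups did not overlap, and the 3 numbers differed by 0.24, 0.23 and 0.23 on the log2 scale. The paired adjusted p was 0.0408, against 0.938 by group alone, and the call held in none of the 12 cases, in which the log2 fold change was 0.23 to 0.24 and the adjusted p 0.0510 to 0.244. The gene lies wholly within another entry of the same strand, which had 28050 counts beside 14203 for ABCB6, so reads of these entries may be shared.

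ABCC8 had 4.79, 3.25 and 3.53 CPM in PROTAC libraries against 6.29, 4.36 and 4.48 CPM in DMSO libraries, a paired log2 fold change of -0.40 (SE 0.12) that did not pass, with an adjusted p of 0.0696. The other members that passed the paired fit with UNC1999 had small paired log2 fold changes with UNC6852, none of which passed. They were 0.10 for ABCD3, 0.11 for ABCE1, 0.078 for ABCC1, -0.088 for ABCA2, -0.052 for ABCA7, -0.061 for ABCC5 and -0.17 for ABCG4, with adjusted p-values of 0.278 to 0.771. Both comparisons use the same DMSO libraries. Members whose PROTAC and DMSO libraries did not overlap numbered 5 of 37, beside 11.5% of all genes.

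The compounds themselves were compared with PROTAC over UNC. They differ in mechanism and in dose, 2.5 µM against 1 µM, so that the comparison is between these treatments and not between matched doses. By group alone 0 of the 37 genes passed in edgeR (0.00827% of all genes did). In that test 2 had an unadjusted p under 0.05, beside 1136 of all 24182 genes. Also by group alone, limma-voom called 0 members, beside 1 gene higher and 0 lower over all genes. DESeq2 called 1 member, ABCA1, beside 108 genes higher and 19 lower. The paired fit called 2, beside 2.9% of all genes: ABCA1 was lower in PROTAC cells, beside 0.74% of genes lower, and ABCG2 higher, beside 2.16% higher. Both are genes of at least 10 CPM, of which 3.53% passed.

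For ABCA1 the 114 to 119 CPM of the PROTAC libraries lay below the 140 to 147 CPM of the UNC libraries, a paired log2 fold change of -0.29 (SE 0.051, adjusted p = 0.000256; 0.246 by group alone). For ABCG2 the 101 to 105 CPM of the PROTAC libraries lay above the 75.0 to 89.0 CPM of the UNC libraries, at 0.30 (SE 0.057, adjusted p = 0.00110; 0.454 by group alone). Both genes thus stood between UNC and DMSO in PROTAC cells. The paired ABCG2 call was lost without UNC library 3 (log2 fold change 0.24, adjusted p = 0.0574) or without number 3 (0.21, 0.144), while the ABCA1 call held in all 12 cases.

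For other members the difference between compounds was not resolved. ABCC2 had a paired log2 fold change of -0.28 with a 95% interval of -0.75 to 0.20 and an adjusted p of 0.698, and ABCC8 one of 0.34 with an interval of 0.082 to 0.60 and an adjusted p of 0.183. ABCB6 had 0.092 with an interval of -0.040 to 0.22. ABCB1 had an interval of -1.03 to 2.11, the widest of the named genes. Non-overlapping members were 4 of 37, beside 9.08% of all genes.

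Summed over subfamilies the total moved little, with 1370 ± 18.7 CPM in UNC cells, 1359 ± 21.3 CPM in PROTAC cells and 1372 ± 6.17 CPM in DMSO cells (SD, n = 3 each). ABCA sums were 273.8 to 278.8 CPM in UNC, 254.8 to 267.1 in PROTAC and 240.4 to 259.4 in DMSO libraries. ABCG sums ran in the opposite order, at 83.6 to 97.9 CPM in UNC, 110.8 to 115.4 in PROTAC and 124.0 to 147.6 in DMSO libraries, without overlap between any groups. Each of these sums followed its most abundant gene, ABCA1 or ABCG2. The ABCE sums, which are ABCE1 alone, and the ABCB, ABCC, ABCD and ABCF sums overlapped between UNC and DMSO libraries.

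**Figure D4:**
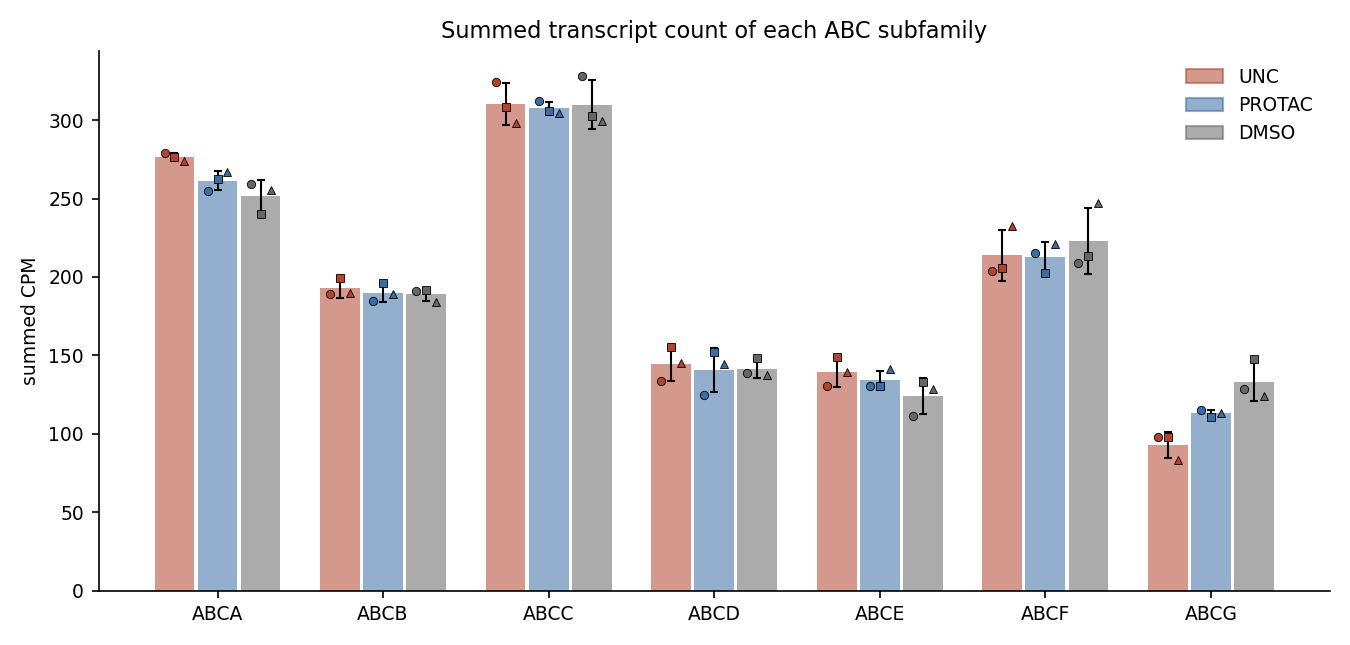
Summed CPM of each ABC subfamily (linear axis from 0); bars are means of 3 libraries of the UNC, PROTAC and DMSO groups, error bars their SD, and points the libraries. The ABCG bars stand at 93.1, 113 and 133 CPM in UNC, PROTAC and DMSO, and the ABCA bars at 276, 261 and 252 CPM.

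Genes that work with the ABC transporters were read from lists, beside background shares of 13.5% of all genes with UNC1999 and 3.02% with UNC6852 in the paired fit. Among 15 tested nuclear receptors and other regulators, 2 were higher by group alone with UNC1999 and 4 in the paired fit, with none lower. MYLIP, a liver X receptor target that marks the low-density lipoprotein receptor for degradation, averaged 49.4 ± 1.31 CPM in UNC cells, 39.0 ± 0.336 in PROTAC cells and 35.4 ± 0.573 in DMSO cells (SD, n = 3 each). Its log2 fold change with UNC1999 was 0.48 by group alone (adjusted p = 0.00668), and with UNC6852 it was 0.14 (paired adjusted p = 0.196). The receptors themselves did not pass with UNC1999, with paired log2 fold changes of -0.17 for NR1H3 and 0.063 for NR1H2. Of other targets, SREBF1 had 0.0054 and ABCG1 had -0.11. Transcript levels do not measure receptor activity, and the part of the liver X receptors in the ABCA1 result was not tested. HNF4A, a hepatic receptor, had 1.00 by group alone (adjusted p = 0.0481) at 6.32 CPM in UNC and 3.16 CPM in DMSO cells. NFE2L2 and AHR, regulators of drug-response genes, had paired values of 0.25 and 0.28 (adjusted p = 0.00253 and 0.0126). With UNC6852, HNF4A and SREBF2 passed the paired fit, both higher.

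Of 14 tested genes of glutathione synthesis and conjugation, which supply substrates of the ABCC pumps, 2 were higher in the paired fit with each compound and none was lower. These were GCLM, a subunit of the rate-limiting enzyme, at paired log2 fold changes of 0.39 with UNC1999 and 0.28 with UNC6852, and MGST1, a microsomal transferase, at 0.43 and 0.39; both comparisons share the DMSO libraries. Among 18 partners and acceptors, 1 was higher and 2 were lower in the paired fit with UNC1999: EIF2AK4, a translation kinase, at 0.18, LCAT, which esterifies the cholesterol of lipoproteins, at -0.27, and APOA1, the acceptor of ABCA1 lipid, at -1.87 but at under 1 CPM on average in every group. With UNC6852 none of the 18 passed. Among 11 tested other drug transporters and pump partners, MSN (0.34) and RDX (0.22) were higher and EZR (-0.18) lower with UNC1999; these 3 link membrane proteins to actin. SLCO4A1 (-0.31), an organic anion carrier, and SLC19A1 (-0.25), the folate carrier, were lower as well, and none of the 11 passed with UNC6852. TAP1 and TAP2, the peptide transporters of the family that carry other symbols, passed in no comparison.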

How the data were processed

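Read counts per gene were analysed for 9 libraries in 3 groups of 3, taken with their replicate numbers from the sample titles. The authors deposited whole-number counts, not normalised. The submitters' processing notes name Trim Galore 0.6.10, HISAT2 2.2.1 and the build GRCh38. No source used here names the counting tool, its strand setting or the annotation release. The labels' protocols describe depletion of ribosomal RNA, but the molecule label is polyA RNA, so how transcripts were selected is uncertain. Of 56312 rows, 5 without a gene identifier (0.00651% to 0.0103% of counts) were left out.

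The test was the quasi-likelihood test of edgeR 4.0.16, run under R 4.3.3 (scaling by TMM, default expression filter by group, robust quasi-likelihood fit of all 9 libraries by group alone, two-sided test, Benjamini-Hochberg adjustment over the 24182 genes tested, false discovery rate 0.05). Every adjusted p in the text is from this test, by group alone or, in the paired fit, with the replicate number as a block. Standard errors are the log2 fold change divided by the square root of F, and 95% intervals use the moderated degrees of freedom. The biological coefficient of variation was 6.09% with the block and 13.2% without. The 9 correlations of same-numbered libraries' deviations from their group means were 0.106 to 0.472 (median 0.264). The 18 of different numbers were -0.324 to 0.0748 (median -0.160). The same-number values were all above 0.1, so the numbers were treated as pairs, a choice made from these same data. It is weakest for number 3, as UNC 3 with PROTAC 3 was at 0.106 and UNC 2 with PROTAC 3 at 0.0748. Paired values stand beside results whose call they change. The design text says the experiment was independently performed 3 times, but the labels do not tie numbers across groups. A chi-square test found every 2 replicates different beyond counting noise (chi-square over degrees of freedom 11.4 to 37.9). CPM divides counts by TMM-scaled library size, and CPM per kb also by the summed exon length in GENCODE 29 (45 of 46 genes). Floors cover counting error only, and the labels name no molecular identifiers. The test was checked on simulated counts.

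The members and lists were chosen with earlier results of these data known. Named were the 3 pumps, members called in any comparison by either fit, the 2 highest per kb in each subfamily and members too low to test; other members named were chosen after their values were seen. A few members are counted in the totals but are not reported here by name or in the figures. Alternatives were RLE, upper-quartile and no scaling, other filters, DESeq2 1.42.0, limma-voom 3.58.1, a fit of just the 6 libraries of a comparison, a threshold of 0.01, the block, and leaving out each library or each replicate number; leaving out a number, and the block with limma-voom or upper-quartile scaling, were added after seeing the data.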

Additional observations from a re-analysis of the deposited data

How the results depend on the processing

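By group alone, UNC against DMSO gave 2 ABC transporters under RLE, upper-quartile or library-size scaling, a filter of 1 CPM in 3 libraries, DESeq2, limma-voom and a fit of the 6 libraries compared, 3 with no filter and 1 at a false discovery rate of 0.01; leaving out a library or replicate number gave 0 to 3. Over all genes, UNC against DMSO by group alone gave 77 higher and 97 lower in the main fit and 356 and 476 with no filter. It gave 15 and 20 at a false discovery rate of 0.01, and 0 and 0 without number 3. Under the replicate block the counts of members were 10 for UNC against DMSO, 4 for PROTAC against DMSO and 2 for PROTAC against UNC, in place of 2, 0 and 0. With the block and another scaling or tool, UNC against DMSO gave 10 (RLE), 9 (library size), 8 (upper quartile), 11 (DESeq2) and 12 (limma-voom); PROTAC against DMSO gave 4, 2, 2, 3 and 5 in the same order, ABCA1 and ABCB6 being lost under library-size and upper-quartile scaling; PROTAC against UNC gave 2 in each. Over all genes with the block, UNC against DMSO gave 1905 higher and 1471 lower (RLE) and 1164 and 1915 (library size). The same comparison gave 1328 and 1801 (upper quartile), 1840 and 1222 (DESeq2) and 1983 and 1828 (limma-voom). PROTAC against DMSO gave 531 and 245, 274 and 265, 312 and 260, 640 and 220, and 650 and 383 in that order. PROTAC against UNC gave 509 and 193, 527 and 157, 505 and 168, 451 and 174, and 688 and 322. Without the block, DESeq2 gave 1 member for PROTAC against UNC, beside 108 genes higher and 19 lower. Leaving out libraries or numbers under the block gave 3 to 12, 0 to 3 and 1 to 2; the cause was not tested. UNC against DMSO fell to 5, 4, 7, 7 and 6 without UNC libraries 1 or 2 or DMSO libraries 1, 2 or 3, and to 7, 3 and 7 without numbers 1, 2 or 3; PROTAC against DMSO fell to 0 without PROTAC library 2, DMSO library 2 or 3, or number 2. Some named log2 fold changes that passed nowhere in these leave-outs changed sign when libraries were left out. By group alone, for PROTAC against DMSO, ABCA7 spanned -0.10 to 0.061, ABCA2 -0.17 to 0.018 and ABCC5 -0.14 to 0.029, and for PROTAC against UNC, ABCE1 spanned -0.11 to 0.0040 and ABCB1 -0.27 to 0.73. With the block the values of opposite sign were 0.013, 0.054 and 0.060 for ABCA7 (without PROTAC library 1, DMSO library 1 or number 1), 0.0041 and 0.020 for ABCA2 (without DMSO library 1 or number 1), 0.011 and 0.0043 for ABCE1 (without PROTAC library 2 or number 2), and -0.14 and -0.036 for ABCB1 (without UNC library 3 or number 3). DESeq2 with the block gave ABCC2 no adjusted p for PROTAC against DMSO. Depth limits the pumps ABCB1 (48 counts over all libraries) and ABCC2 (595).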

Other observations

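The ABC values can be read beside markers of other cell states, counted in the paired fit, in which 7.05% of all genes were higher and 6.46% lower with UNC1999, and 2.03% higher and 0.988% lower with UNC6852. With UNC1999, amnion markers were 1 higher and 4 lower of 8 tested, with sums of 26.8 to 34.7 CPM in UNC libraries, 35.2 to 49.8 in PROTAC libraries and 36.1 to 39.0 in DMSO libraries. Primed and formative markers were 3 higher and 6 lower of 14, naive markers 4 higher and 3 lower of 14, endoderm and liver markers 1 higher and 2 lower of 8, mesoderm and endothelium markers 0 higher and 3 lower of 7, neural markers 0 higher and 2 lower of 8, and general pluripotency markers 3 higher and 0 lower of 9. With UNC6852 the counts were 1 and 0 of 8 for amnion, 1 and 1 of 14 for primed and formative, 4 and 2 of 14 for naive, 1 and 0 of 8 for endoderm and liver, 0 and 2 of 13 for trophoblast, 1 and 0 of 9 for general pluripotency, and 0 and 0 for mesoderm and neural lists. Their part in the ABC results was not tested.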
